A study of Mus musculus with 8 samples.

Results

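The 10 genes described here are the circadian output and period genes Dbp, Tef, Hlf, Nr1d1, Nr1d2, Per1, Per2, Per3, Bhlhe41 and Bhlhe40, out of 18193 genes measured on the same arrays. All 23 probe sets that the platform annotation gives to only 1 of these symbols were taken, of 45037 probe sets in all. The genes were chosen by name with the log2 fold change between treated and untreated tumours already known for some of them, Dbp among them, and so were selected on that difference. Their differences between the groups are therefore given as a description and carry no test.

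The 8 samples were of mammary tumours of female mice that carry the MMTV-PyMT transgene. In it the mouse mammary tumour virus promoter drives the polyoma middle T oncogene in mammary epithelium. All 8 samples are labelled with this genotype and with FVB/N-Tg(MMTV-PyVT)634Mul/J, and the sources used here do not give the ages of the mice. The 4 samples of the SKI606 group came from animals dosed by gavage with 100 mg/kg SKI-606, also called bosutinib, which inhibits tyrosine kinases of the Src and Abl families, and the 4 of the Vehicle group from mice labelled as treated with vehicle. The sources used here do not state the time of day of collection, the light cycle or the interval after the last dose. By its title, the series asks about tumour differentiation. The labels do not say how the numbered samples map to animals or tumours, so any spread given here may be partly technical. For short, a numbered sample is called a tumour below.

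The mammalian circadian clock is a transcriptional feedback loop. CLOCK and BMAL1 (gene Arntl) bind E-box sequences and switch on the Per and Cry genes, whose proteins then repress CLOCK and BMAL1. The same E-boxes drive the nuclear receptor genes Nr1d1 and Nr1d2 (REV-ERB alpha and beta), which repress Arntl. They also drive the basic leucine zipper genes Dbp, Tef and Hlf of the PAR family, whose proteins act on D-box sequences of output genes. Bhlhe40 and Bhlhe41 (DEC1 and DEC2) encode E-box binding repressors and are also known to respond to signals other than the clock. In tissues with a running clock, the transcripts of Dbp and Nr1d1 are among those that swing most widely over the day.

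The promoters of these genes carry the sequence motifs of this loop unevenly. RefSeq promoter sequences (GRCm38.p6) matched 8 of the 10 genes, with 10 promoters, because Tef and Per1 have 2 start sites each in the table. In the 250 bases before the start, the E-box CACGTG was present in 4 of these 10 promoters, belonging to Tef (both), Per1 and Bhlhe41, and in 6.02% of all 32851 promoters. The D-box TTATGTAA, searched on both strands as was every motif, stood in 1 of the 10, that of Per3, which held 2 copies, and in 0.819% of all promoters. Its variant TTACGTAA was in 0 of the 10 and 0.113% of all, the cAMP response element TGACGTCA in 1 of the 10 (Hlf) and 1.55% of all, and the nuclear receptor core AGGTCA in 2 of the 10 (Nr1d2 and Per1) and 14.0% of all. The 5 promoters with an E-box or D-box are shown over the stretch from 230 to 111 bases before the start, 5′ to 3′ on the strand of the gene, with the motifs in capitals. In Per1 the second run of capitals is the nuclear receptor core on the other strand.
Tef, chr15:81802443-81802562, plus strand: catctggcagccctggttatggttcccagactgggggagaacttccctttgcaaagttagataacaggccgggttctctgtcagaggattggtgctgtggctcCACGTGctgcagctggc
Tef, chr15:81811184-81811303, plus strand: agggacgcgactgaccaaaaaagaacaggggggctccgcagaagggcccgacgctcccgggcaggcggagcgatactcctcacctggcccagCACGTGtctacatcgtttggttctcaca
Bhlhe41, chr6:145865531-145865650, minus strand: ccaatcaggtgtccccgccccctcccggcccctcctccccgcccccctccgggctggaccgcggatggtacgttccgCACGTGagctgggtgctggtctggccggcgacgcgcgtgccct
Per1, chr11:69098719-69098838, plus strand: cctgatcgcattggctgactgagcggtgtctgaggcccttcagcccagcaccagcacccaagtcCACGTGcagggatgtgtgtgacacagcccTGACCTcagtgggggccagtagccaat
Per3, chr4:151044776-151044895, minus strand: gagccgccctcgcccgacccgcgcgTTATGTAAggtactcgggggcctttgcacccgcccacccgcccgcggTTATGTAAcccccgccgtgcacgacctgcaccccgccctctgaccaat
These letters are a description of the reference sequence. The promoters of Dbp and Nr1d1 held none of the motifs searched in this window, which says nothing about sites elsewhere in these genes.

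Across the arrays, the median of the recovered signals lay between 15 and 23. No pair of arrays held the same values. Over all probe sets, SKI-606 samples 1 and 4 stood apart on the first principal component (34% of the variance) at 81.1 and 72.5, against -38.5 to -14.8 in the other 6 samples. On the second component (17.9%) it was vehicle sample 3 that lay far from the rest, at -81 against -2.3 to 35.2. The same 3 samples had the highest summed signals of 6 squamous keratinization genes, between 5197 and 7828, against at most 345 in the other 5. The luminal epithelial markers, among them Krt8 and Krt18, were bright in every sample, with a summed signal from 21587 to 27579. The log2 fold change of each member is given with all samples and without these 3. The latter compares only SKI-606 samples 2 and 3 with vehicle samples 1, 2 and 4, and its SE ranged from 0.17 to 0.35. In bulk tissue, fewer cells of a type and less RNA per cell cannot be told apart.

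In the tumours of SKI-606 mice, 4 of the 10 genes had higher signals in every sample than in any vehicle tumour. These were Dbp, Tef, Nr1d1 and Bhlhe41, an output activator, its close relative, a REV-ERB receptor and a repressor. The other 6 overlapped between the groups, and 0 of 10 lay wholly below the vehicle range. Over all genes, 2.40% lay wholly above and 2.04% wholly below the vehicle values. The members' count was set by how they were chosen and is given as a description. By the probe set of highest mean signal, 7 of the 10 had a log2 fold change above 0 and the median was 0.47, beside 47.1% of all genes above 0 and a median of -0.02. No probe set of any gene passed the test between the groups: limma called 0 of 45037 (0.00%) at an adjusted p under 0.05, and 3770 (8.37%) had an unadjusted p under 0.05.

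**Figure D1:**
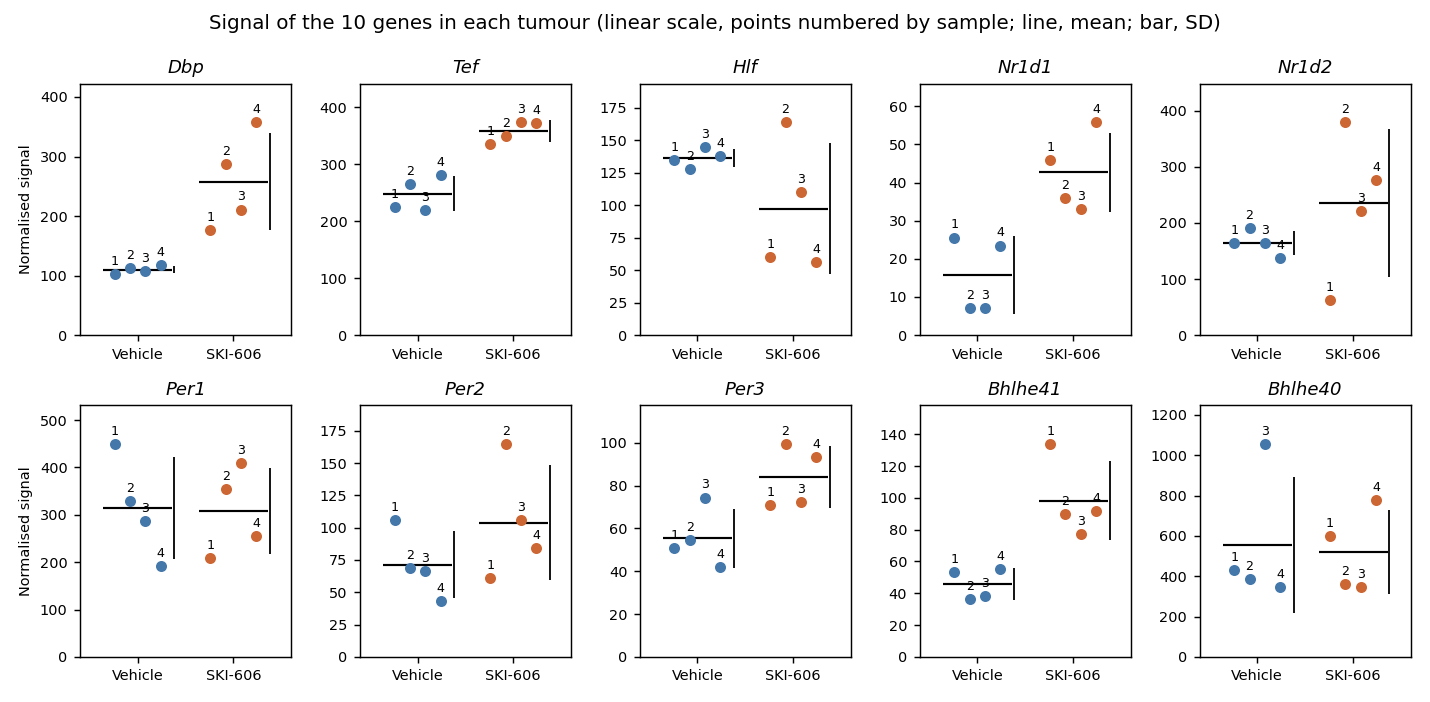
Normalised signal (linear axis from 0) of the representative probe set of each of the 10 genes in 4 vehicle and 4 SKI-606 samples. Points are single samples numbered as in the labels, the line is the mean and the bar the SD. For Dbp, Tef, Nr1d1 and Bhlhe41 every SKI-606 point lies above every vehicle point, while the groups overlap for Per1 and for Bhlhe40, whose highest value is vehicle sample 3.

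Dbp, a D-box activator whose transcript is a common readout of clock phase, had the widest log2 fold change of the 10 on the scale used here, although Nr1d1, a dim gene, was wider with an added constant of 1 (1.58 against 1.17) and on the deposited ratios (1.78 against 1.47). Its representative probe set, 1438211_s_at, read 103, 113, 107 and 117 in the vehicle tumours and 177, 287, 211 and 358 in the SKI-606 tumours, each in the order of the sample numbers 1 to 4, as in all such series of values here. The vehicle tumours lay close together, and the lowest SKI-606 tumour, sample 1, was above all of them. The means were 110 ± 6.14 and 258 ± 80.8 (SD, n = 4 each), so that the spread was much wider in the SKI-606 group. The log2 fold change, SKI-606 minus vehicle on the scale of log2(signal + 16), was 1.08 ± 0.21 (SE), with a 95% interval from 0.62 to 1.54. The other probe set, 1418174_at, gave 75.5, 93.1, 93.5 and 76.4 in vehicle and 168, 205, 195 and 276 in SKI-606 samples. It ordered the groups in the same way, with no overlap and a log2 fold change of 1.16 ± 0.17. SKI-606 sample 4 was the highest and sample 1 the lowest of the treated tumours by both. Without vehicle sample 3 and SKI-606 samples 1 and 4 the log2 fold change of the representative probe set was 1.05.

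Tef encodes a PAR leucine zipper activator related to DBP, and its 2 promoters carry the E-boxes shown above. Its representative probe set, 1424175_at, read 224, 265, 220 and 281 in vehicle and 336, 350, 374 and 373 in SKI-606 tumours. The groups did not overlap and the treated tumours were closely spaced, at 358 ± 18.8 against 248 ± 30.4 (SD, n = 4 each). The log2 fold change was 0.51 ± 0.13, smaller than that of Dbp, and it was 0.48 without the 3 samples that stood apart. The other 2 probe sets of Tef were dim: 1450184_s_at, at 15.4 ± 9.71 and 33.2 ± 12.9, overlapped between the groups at a log2 fold change of 0.68 ± 0.27, and 1438033_at, with signals of at most 16.5, stood at -0.18 ± 0.18.

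Hlf, the PAR family member with the cAMP response element in its promoter, did not follow Dbp and Tef. Its representative probe set, 1434736_at, read 135, 128, 145 and 138 in vehicle and 60.0, 164, 110 and 55.9 in SKI-606 tumours. SKI-606 samples 1 and 4 were far below every vehicle tumour, while sample 2 was above all of them. The log2 fold change was -0.53 ± 0.28, and 0.01 without vehicle sample 3 and SKI-606 samples 1 and 4. The second probe set, 1434735_at, was also lowest in SKI-606 samples 1 and 4, at 32.4 and 55.0, against 65.1 to 77.4 in vehicle, with a log2 fold change of -0.28 ± 0.20. These 2 tumours are those with the highest squamous sums, 7335 and 7828, and hair follicle sums, 7929 and 9303 over 5 genes. Vehicle sample 3, whose sums were 5197 and 3261, had the highest vehicle value of Hlf, 145. The part of these tissues in the Hlf values was not tested.

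Of the REV-ERB receptor genes, Nr1d1 was higher in the treated tumours and Nr1d2 was spread widely. The only probe set of Nr1d1, 1426464_at, was dim, with 25.6, 7.0, 7.0 and 23.5 in vehicle and 45.9, 35.9, 33.0 and 55.9 in SKI-606 tumours. Every treated value was above every vehicle value, and sample 4 was highest, as for Dbp. The means were 15.8 ± 10.2 and 42.7 ± 10.4 (SD, n = 4 each) and the log2 fold change 0.93 ± 0.24. Because these signals are close to the added constant of 16, its fold change depended on the constant, from 0.42 with 64 to 1.58 with 1, and it was 0.59 without the 3 samples that stood apart. Nr1d2, by 1416958_at, read 165, 191, 164 and 138 in vehicle and 62.2, 380, 222 and 276 in SKI-606 tumours. The lowest and the highest of the 8 values were both in treated tumours, samples 1 and 2. Its log2 fold change of 0.26 ± 0.43 was smaller than its error, and turned to -0.03 without SKI-606 sample 2 and to 0.75 without SKI-606 sample 1. Without the 3 samples that stood apart it was 0.77 ± 0.27, with SKI-606 sample 2, the highest value, and sample 3 as the treated tumours left. The second probe set of Nr1d2, with signals of at most 19.5, stood at 0.24 ± 0.28.

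The period genes encode the proteins that close the feedback loop, and the 3 genes gave different patterns over the tumours. Per1, by its only probe set 1449851_at, read 450, 330, 286 and 192 in vehicle and 209, 355, 410 and 256 in SKI-606 tumours. The groups overlapped widely, with means of 314 ± 107 and 308 ± 91.7 (SD, n = 4 each). The log2 fold change was -0.02 ± 0.28, of a sign that changed in 8 of 18 alternatives, and its 95% interval from -0.64 to 0.61 leaves room for changes in either direction. Without the 3 samples that stood apart it was 0.30.

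Per2, by 1417602_at, read 106, 68.9, 66.8 and 43.2 in vehicle and 61.1, 165, 106 and 84.0 in SKI-606 tumours. The groups overlapped, with the highest value in SKI-606 sample 2 and the lowest in vehicle sample 4, and the log2 fold change was 0.44 ± 0.29. Without the 3 samples that stood apart it was 0.81 ± 0.35, with SKI-606 sample 2, the highest value, and sample 3 as the treated tumours left. Its other 2 probe sets were dim and stood at 0.14 ± 0.16 and -0.27 ± 0.22. Per1 and Per2 were both lowest in vehicle sample 4 and, among treated tumours, in sample 1. Vehicle sample 1 and SKI-606 sample 2, each the highest of its group for Per2, also had the highest summed signals of 6 skeletal muscle genes, 15393 and 10767. The next highest muscle sum, 4948, was in SKI-606 sample 1, the treated tumour with the lowest Per2, and the other samples were lower. SKI-606 sample 2 also had the highest sum of 4 measured adipocyte genes, 4930. The part of muscle or fat in these values was not tested.

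Per3, whose promoter holds both D-boxes, read 50.6, 54.4, 74.4 and 42.1 in vehicle and 71.1, 99.5, 72.2 and 93.4 in SKI-606 tumours by 1421087_at. Only vehicle sample 3 reached the treated range, above SKI-606 samples 1 and 3. The means were 55.4 ± 13.7 and 84.1 ± 14.5 (SD, n = 4 each), and the log2 fold change was 0.49 ± 0.18, or 0.64 without the 3 samples that stood apart. With the arrays scaled to a common median in place of quantile normalization the groups did not overlap and the value was 0.72. That scaling raised every member, Per1 from -0.02 to 0.25 among them, and vehicle sample 3 had the highest array median, 23. With it 4.12% of all genes lay wholly above the vehicle range, against 2.40%, so this is no separate sign of a difference in Per3. The 5 other probe sets of Per3 were dim and did not show this difference, at log2 fold changes from -0.29 to 0.13, and the mean of all 6 probe sets gave 0.07.

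The DEC repressor genes differed from each other. Bhlhe41, by 1421099_at, read 53.5, 36.5, 38.2 and 55.1 in vehicle and 134, 89.8, 77.4 and 91.4 in SKI-606 tumours. All treated tumours were above all vehicle tumours, and here sample 1 was the highest. The means were 45.8 ± 9.83 and 98.2 ± 24.8 (SD, n = 4 each) and the log2 fold change 0.87 ± 0.19, with 0.64 left without the 3 samples that stood apart. The second probe set, 1457096_at, with signals of at most 25.4, overlapped and stood at 0.42 ± 0.23.

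Bhlhe40 read 430, 386, 1057 and 348 in vehicle and 600, 360, 346 and 779 in SKI-606 tumours by its only probe set, 1418025_at. The 3 highest values were in vehicle sample 3 and SKI-606 samples 4 and 1, the samples of high squamous signal, and the other 5 lay between 346 and 430. The groups overlapped, with an SD of 336 in vehicle, where sample 3 was far above the rest, and 208 in SKI-606 tumours, and the log2 fold change of -0.02 ± 0.38 had a sign that changed in 6 of 18 alternatives. It was -0.13 without the 3 samples that stood apart. Among the other clock genes, Nfil3, a D-box repressor, was also highest in these 3 samples, at 94.9, 112 and 146 in vehicle sample 3 and SKI-606 samples 1 and 4, against 20.8 to 63.2 in the other 5. Npas2, a relative of Clock, was highest in them too, at 48.9, 49.9 and 47.0, against 18.5 to 34.0. The part of squamous tissue in these values was not tested.

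**Figure D2:**
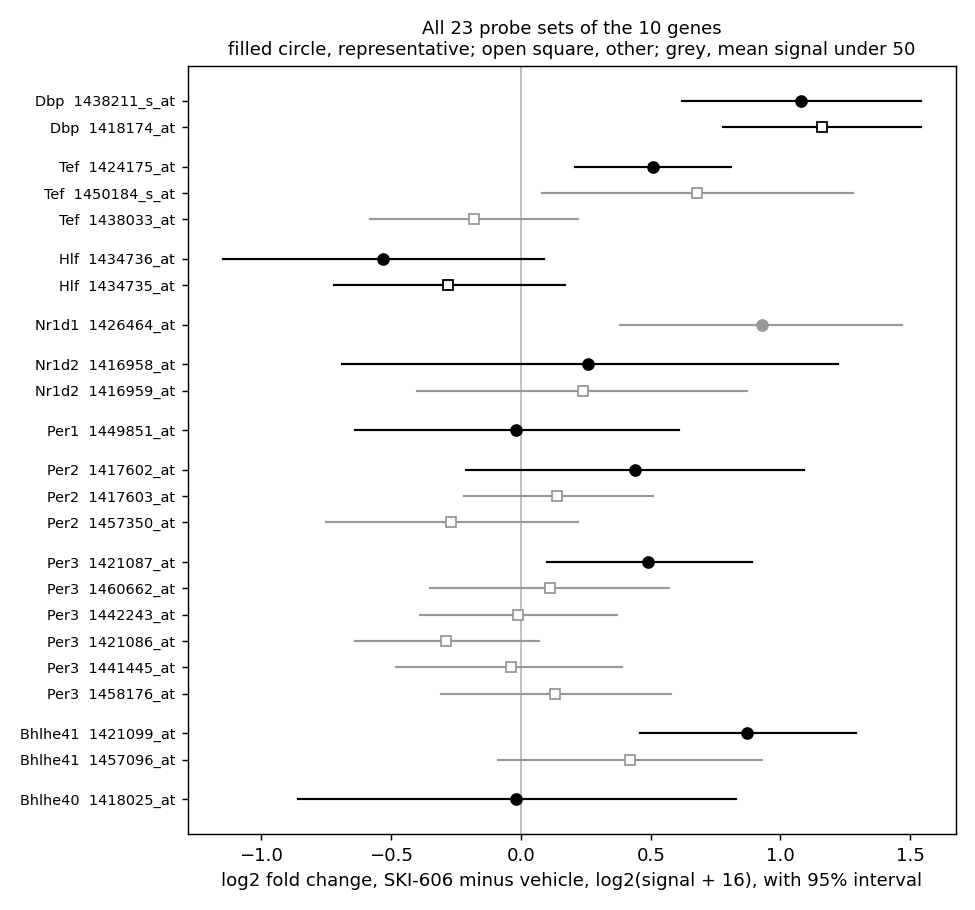
Log2 fold change, SKI-606 minus vehicle, of all 23 probe sets of the 10 genes (horizontal axis, log2(signal + 16)) with 95% intervals from the limma fit, 4 tumours a group. Filled circles mark the representative probe set of a gene, open squares the others, and grey a mean signal under 50; both Dbp probe sets lie near 1.1, while the 6 of Per3 range from -0.29 to 0.49.

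The plot of all probe sets shows how far the probe sets of a gene went together. The 2 of Dbp and the 2 of Hlf were alike in direction, as were the 2 of Nr1d2 and the 2 of Bhlhe41, whereas those of Tef, Per2 and Per3 had both signs. Of the 23 probe sets, 12 had a mean signal under 50 and 8 of these under 20, where the added constant of 16 compresses any difference. Nr1d1, Per1 and Bhlhe40 have 1 probe set each, so agreement could not be looked at for these 3 genes. Of the 23, 5 had all treated values above all vehicle values and 0 the reverse, beside 1.83% and 1.87% of all probe sets.

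In the other listed genes, as in the members, no difference between the groups passed the test. Of 27 other genes listed for the clock, its outputs and the glucocorticoid response, 24 had a probe set with 1 symbol. In limma 0 of these 24 passed an adjusted p under 0.05. The smallest limma adjusted p was 0.600, near the smallest over all probe sets, 0.515. In either direction 0 had an unadjusted limma p under 0.05, beside 8.37% of all probe sets, and the smallest was 0.0544, for Tspan4. The median log2 fold change of the 24 was -0.14, with 16 below 0 and 8 above. In 0 of 24 were the groups apart, beside 2.40% of all genes wholly above and 2.04% wholly below.

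Among the activators, which switch on the genes of the E-box loop, Clock read 42.8, 55.4, 32.4 and 50.4 in vehicle and 17.5, 55.8, 18.6 and 25.4 in SKI-606 tumours. SKI-606 samples 1, 3 and 4 were below all vehicle tumours and sample 2 was at the top, with a log2 fold change of -0.49 ± 0.25 (limma adjusted p = 0.633). Its other 3 probe sets stood between -0.28 and -0.06. Arntl, which encodes BMAL1 and is repressed by the REV-ERB proteins, read 54.5, 31.0, 66.8 and 53.9 in vehicle and 38.2, 32.4, 52.5 and 42.1 in SKI-606 tumours. The groups overlapped, at a log2 fold change of -0.22 ± 0.20 (limma adjusted p = 0.792) and 0.27 by its second, dimmer probe set. Npas2 and Arntl2, paralogues of Clock and Arntl, stood at 0.01 ± 0.25 and 0.03 ± 0.30.

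The cryptochrome genes, whose proteins repress CLOCK and BMAL1 together with the PER proteins, were each read by 1 probe set. Cry1 read 131, 92.2, 201 and 106 in vehicle and 112, 119, 84.2 and 92.4 in SKI-606 tumours, with a log2 fold change of -0.29 ± 0.22 (limma adjusted p = 0.749). Cry2 read 77.8, 88.8, 78.6 and 108 in vehicle and 64.5, 78.1, 70.2 and 62.2 in SKI-606 tumours. Only SKI-606 sample 2 reached into the vehicle range of Cry2, and the log2 fold change was -0.29 ± 0.14 (limma adjusted p = 0.621).

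**Figure D3:**
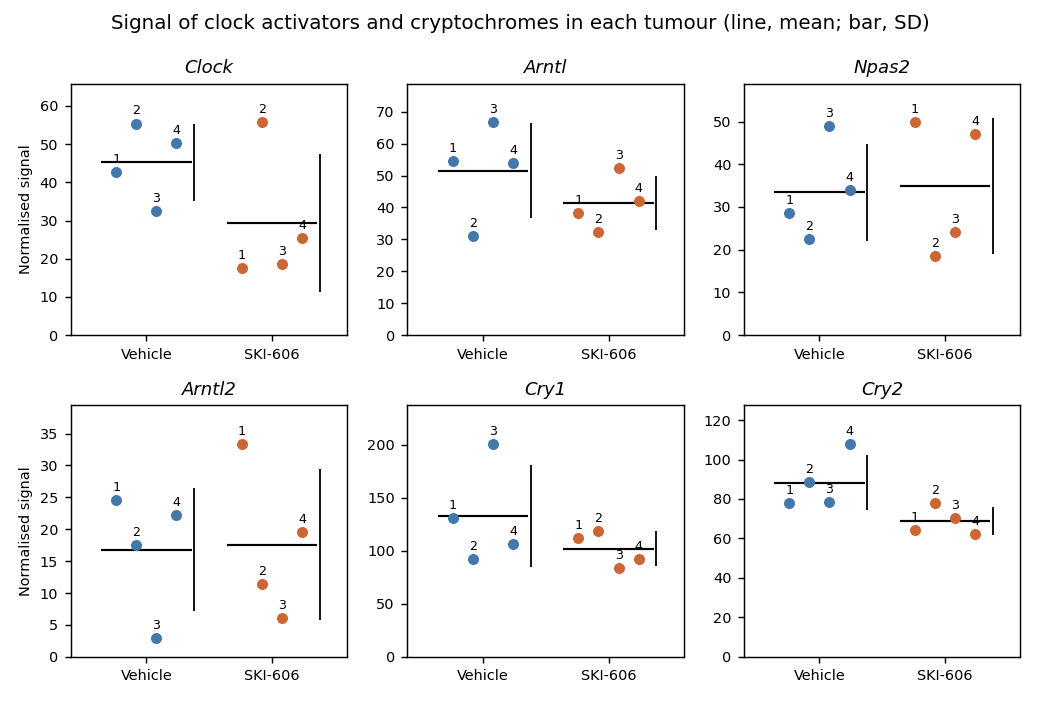
Normalised signal (linear axis from 0) of Clock, Arntl, Npas2, Arntl2, Cry1 and Cry2 in each tumour, points numbered by sample, with mean (line) and SD (bar). The groups overlap in all 6 panels, and vehicle sample 3 with SKI-606 samples 1 and 4 gives the highest values of Npas2.

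Of the listed output genes, 3 of 4 measured lay below 0 and Tspan4, a tetraspanin gene, had the widest difference at 0.63 ± 0.29 (limma adjusted p = 0.600). The glucocorticoid response genes, a pathway that also acts on Per1, had a median of -0.24 with 4 of 6 below 0, and 0 passed. Tsc22d3, a direct target of the glucocorticoid receptor, read 1309, 801, 799 and 772 in vehicle and 561, 722, 924 and 649 in SKI-606 tumours, at a log2 fold change of -0.35 ± 0.22 (limma adjusted p = 0.694). The 4 probe sets of Tsc22d3 had both signs, from -0.82 to 0.23.

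Fibroblast and macrophage markers also had higher summed signals in every SKI-606 tumour than in any vehicle tumour, as Dbp, Tef, Nr1d1 and Bhlhe41 did. The summed signal of 6 fibroblast genes was 11978 to 14925 in vehicle and 15702 to 26699 in SKI-606 tumours, with 6 of 6 genes above 0. That of 5 macrophage genes was 2552 to 4050 and 4061 to 8155, with 5 of 5 above 0, and that of 5 endothelial genes 305 to 516 and 402 to 863, with 5 of 5 above 0. For 4 measured T cell genes the sums were 41 to 114 and 66 to 119, with 4 of 4 above 0. For 4 measured adipocyte genes they were 321 to 1812 and 320 to 4930, with 3 of 4 above 0. Skeletal muscle (6 of 6) and hair follicle genes (5 of 5) were also all above 0, though their sums overlapped between the groups. Of the squamous genes 4 of 6 were above 0, and of the luminal genes 2 of 6. The 4 measured proliferation genes had sums of 1400 to 2094 in vehicle and 544 to 1806 in SKI-606 tumours, with 0 of 4 above 0. None of the markers measured was under a signal of 10 in every sample. SKI-606 sample 4 had the highest macrophage and fibroblast sums and the highest Dbp and Nr1d1 signals. In SKI-606 sample 1, with a fibroblast sum of 26675, Dbp (177) and Tef (336) were the lowest of the treated tumours. Bhlhe41 (134) was the highest there, and Nr1d1 (45.9) was below sample 4 only. SKI-606 sample 3, whose fibroblast sum of 15702 was closest to the vehicle tumours, had a Dbp signal of 211 against at most 117 in vehicle. Of the treated tumours it had the lowest Nr1d1 (33.0) and Bhlhe41 (77.4) signals and the highest of Tef (374). The part of these cell types in the clock gene values was not tested.

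The pattern of Dbp over the 8 tumours was compared with that of every other gene, by the root mean square difference of log2 values after each was centred on its own mean. Among genes that are no members, the 5 most like Dbp were 4930486L24Rik at 0.21, Ptger4, which encodes a prostaglandin E2 receptor, at 0.24, Reg1 at 0.25, Hvcn1, which encodes a proton channel, at 0.27 and the chemokine gene Ccl24 at 0.27. Of these, 4930486L24Rik read 1.0 to 3.4 and Ccl24 1.1 to 7.0 in vehicle tumours, near the floor, where their distance to Dbp depends on the added constant of 16. The vehicle signals of Reg1, 12.4 to 14.4, were also below that constant. The median distance over all genes was 0.67. Ptger4 read 103, 123, 110 and 114 in vehicle and 212, 179, 197 and 357 in SKI-606 tumours, with SKI-606 sample 4 highest as for Dbp. Among the members, Tef and Per3 were nearest at 0.38 each, followed by Nr1d1 at 0.39 and Bhlhe41 at 0.42. Behind them came Per2 at 0.54 and Nr1d2 at 0.62. Among all genes ordered by distance, Tef ranked 157, Per3 174, Nr1d1 222, Bhlhe41 398, Per2 2476 and Nr1d2 6012, so many other genes lay nearer to Dbp. The distance holds the difference between the groups that the members were chosen on, so their closeness is a description. Per1 at 0.72, Bhlhe40 at 0.80 and Hlf at 0.93 were farther from Dbp than the median gene.

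**Figure D4:**
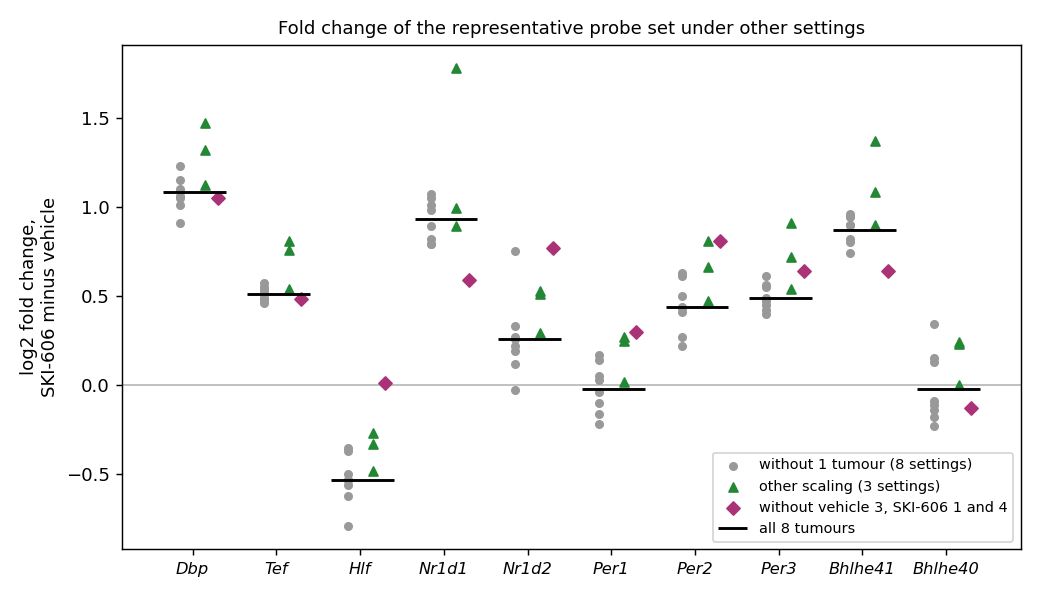
Log2 fold change (SKI-606 minus vehicle) of the representative probe set of each gene with all 8 tumours (line), without each tumour in turn (grey circles), with 3 other scalings (green triangles) and without vehicle sample 3 and SKI-606 samples 1 and 4 (diamonds). Dbp, Tef, Nr1d1, Per2, Per3 and Bhlhe41 stay above 0 in all settings drawn, Hlf reaches 0.01 without the 3 samples, and Per1, Nr1d2 and Bhlhe40 have values on both sides of 0.

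Under other settings Dbp, Tef, Nr1d1 and Bhlhe41 kept a fold change above 0, and so did Per2 and Per3, whose groups overlapped. Over all 18 alternatives Dbp ranged from 0.86 to 1.47, Tef from 0.33 to 0.81 and Bhlhe41 from 0.55 to 1.37, and Nr1d1 from 0.42 to 1.78 over the 17 that kept its dim probe set. Per2 ranged from 0.10 to 0.81, Per3 from 0.07 to 0.91 and Hlf from -0.79 to 0.01. All these settings share the same arrays, so their agreement is a description and no test.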

How the data were processed

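Expression was read in 8 samples on 1 Affymetrix array each. The authors deposited linear ratios, as worked out from the values. The sources used here do not name the software or scaling. The recovered signals had a mean, with the highest and lowest values trimmed, of 99.82 to 99.84 on every array, so they had already been scaled alike. The ratios fit each signal divided by its array median and then by its probe median over arrays, or by a constant for dim probes, with a lowest value of 0.01. Whole-number signals were recovered from them and gave back 100.0% of 45101 deposited ratio rows within a relative 0.0001. On simulated data, with the array medians and the constant given as known, the signals of 99.8% of probes were recovered exactly. The signals were quantile normalized, 16 was added, and log2 was taken. The design had foreseen such signals, not ratios. The 64 control probes were left out, and limma 3.58.1 (R 4.3.3) was fitted over 45037 probes, p-values adjusted by Benjamini-Hochberg and called under 0.05. Of these, 34945 had 1 symbol, 932 several and 9160 none in the annotation given. A gene was represented by its probe set of highest mean signal. No depth applies, and the number of arrays limits precision. Members, the other clock genes and the marker lists were chosen with earlier results of these data known. Named were all members, the activators and cryptochromes, other listed genes with an unadjusted p under 0.05 or groups apart (none were), and the 5 genes most like Dbp; Nfil3, Tspan4 and Tsc22d3 were named after their values were seen. Correlations of same-numbered samples' deviations were from -0.15 to 0.11, so the numbers were not taken as pairs.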

Additional observations from a re-analysis of the deposited data

Results flagged for a closer look

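Tsc22d3 in vehicle sample 1, with a signal of 1309, lay far from the other 3 vehicle tumours, which were between 772 and 801. It was the only such value among 94 groups of 4 looked at, of which chance alone would mark about 5%.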

How the results depend on the processing

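Of the alternatives run, every one called 0 probe sets and 0 of the other clock genes at limma's adjusted threshold of 0.05. Between 1784 and 4917 of 45037 probe sets had an unadjusted p under 0.05, as did 1692 of the 14944 with a mean signal of at least 50, and 0 to 3 of the other clock genes. The number of members above 0 was 7 with all samples and from 7 to 8 when 1 tumour was left out, 9 with median scaling or on the deposited ratios, and 9 without vehicle sample 3 and SKI-606 samples 1 and 4, a setting chosen after seeing the data. It was 6 of 9 with a mean signal of at least 50, where Nr1d1 has no value. Dbp, Tef, Nr1d1 and Bhlhe41 were wholly above the vehicle range on each of the 4 scales tried. The scale with no normalization between arrays uses signals that already had a common trimmed mean, so it is not unscaled data. The deposited ratios order the samples of a probe set as median scaling does, so for overlap they are no separate check. Per3 joined them with median scaling and on the deposited ratios (749 genes, 4.12%), and Nr1d2 and Per3 did without the 3 samples (7.99% of all genes). On the deposited ratios the median log2 fold change of all probe sets was 0.10 against -0.02, a shift to be set beside the wider values there, such as 1.47 for Dbp and 1.78 for Nr1d1. A pseudocount of 64 gave 0.55 for Bhlhe41 and 0.42 for Nr1d1. Tef was 0.33 by the mean of its probe sets. With the replicate block 0 probe sets were called, 7 members lay above 0, and 3853 probe sets and 2 other clock genes had an unadjusted p under 0.05. Signals near the added constant limit what the dim probe sets can show.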
